A study of Mus musculus with 20 samples.

Results

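Trbc2, the gene for one of the pair of T cell receptor beta constant regions, was examined with 6 genes that mark neurons of particular layers of the neocortex: Tbr1, Rprm, Fezf2, Rorb, Cux2 and Lamp5. These 7 genes, of 49671 in the deposited tables, were taken from a list of neocortical neuron genes with Trbc2, and were chosen by their CPM across these same libraries, in which Trbc2 had been seen to vary with layer genes. Which of the layer genes Trbc2 follows is therefore described below, over 20 libraries, without a test.

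The data are bulk RNA-seq read counts from single frozen hippocampi of wild-type male mice aged 10 to 12 weeks, 1 library per mouse and 5 mice in each of 4 groups. The control group received isotype control antibodies intraperitoneally. The ICI group received immune checkpoint inhibitors, which are antibodies that block brakes on T cells: anti-CTLA-4 at 1 mg a dose, 3 doses a week, and anti-PD-1 at 200 µg a dose, 2 doses a week. Mice of the melanoma group bore tumours of D4M-3A.UV2, a syngeneic mouse melanoma line injected into the skin on both sides at 500000 cells, left 1 week to engraft, and received the isotype antibodies. The melanoma plus ICI group carried the same tumours and received the same inhibitors for 3 weeks. All mice were killed 72 hours after the last injection. The injected cells were placed in the skin, not in the brain. Library totals ran from 21990624 to 25735149 counts, and 2 libraries, control replicate 4 and melanoma plus ICI replicate 1, stood apart in holding relatively more of the short transcripts.

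The neocortex is built of layers whose excitatory neurons differ in their targets and in the transcription factors that set their identity. Layer 6 neurons project to the thalamus, layer 5 neurons to the brainstem and spinal cord, layer 4 neurons receive thalamic input, and the upper layers connect cortical areas. The T cell receptor beta locus carries V segments, then a pair of clusters, each with a D segment, J segments and a constant gene. A T cell joins V, D and J segments in its DNA, and the transcript is spliced to the constant gene. A mature T cell whose receptor pairs an alpha with a beta chain thus carries RNA of joined V, D, J and constant sequences. It also carries RNA for the alpha chain and the CD3 proteins.

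The coding sequences of Trbc2 and its neighbour Trbc1 are shown because they limit how reads can be told apart between them. Both lie on the plus strand of chromosome 6 (GRCm38, GENCODE M21), with the coding part of Trbc2 at chr6:41546730-41548178 and that of Trbc1 at chr6:41538218-41539662. Bases 241 to 518 of each coding sequence are printed 5′ to 3′, and capitals mark bases that differ between them.
Trbc2: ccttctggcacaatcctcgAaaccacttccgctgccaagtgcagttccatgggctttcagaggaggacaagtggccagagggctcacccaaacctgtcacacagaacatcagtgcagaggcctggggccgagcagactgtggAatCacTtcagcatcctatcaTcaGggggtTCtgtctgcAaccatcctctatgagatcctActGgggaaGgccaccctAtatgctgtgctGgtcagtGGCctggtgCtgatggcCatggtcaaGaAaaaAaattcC
Trbc1: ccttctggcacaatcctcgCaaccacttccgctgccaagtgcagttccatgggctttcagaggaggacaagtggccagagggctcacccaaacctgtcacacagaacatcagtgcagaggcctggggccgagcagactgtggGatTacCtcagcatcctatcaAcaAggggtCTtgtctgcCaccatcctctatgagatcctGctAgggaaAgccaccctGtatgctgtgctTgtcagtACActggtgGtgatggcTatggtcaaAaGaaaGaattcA
Over 518 coding bases the pair differed at 23, an identity of 95.6%. The first 240 bases were identical, exon 1 (375 bases) held 1 difference, and the 143 bases after it held 22. Of the 643 windows of 50 bases in the Trbc2 transcript, 283 (44.01%) were also found in Trbc1, and of the 593 windows of 100 bases 183 (30.9%). How the submitters' counting treated reads that match both genes is not given in the sources used here. The counts of Trbc2 can therefore lack reads from the shared stretch.

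J segments of the second cluster, which lies directly before Trbc2, are shown because their counts bear on what the Trbc2 reads are part of. The 3 segments with the most counts are printed 5′ to 3′ from the plus strand of chromosome 6, with the codons of the Phe-Gly-X-Gly motif that J segments share in capitals.
Trbj2-3: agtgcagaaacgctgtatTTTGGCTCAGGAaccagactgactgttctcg
Trbj2-7: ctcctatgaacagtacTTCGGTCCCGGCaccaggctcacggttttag
Trbj2-2: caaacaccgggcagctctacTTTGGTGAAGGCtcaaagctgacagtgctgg
They lie at chr6:41543223-41543271, chr6:41543810-41543856 and chr6:41542957-41543007.

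Trbc2 (ENSMUSG00000076498, chr6:41546730-41548352, plus strand, 692 exonic bases) was a low and very uneven transcript in these hippocampi. In CPM, counts per 1000000 of a library's total after scaling for composition, the 5 control libraries held 1.61, 0.128, 0.0911, 7.38 and 3.61 in replicate order. The ICI libraries held 0.0858, 0.177, 0.191, 0.206 and 0.667 CPM. The melanoma libraries held 2.69, 0.939, 2.12, 0.297 and 2.34 CPM. Every ICI library was thus below 1 CPM, while control held both very low and high libraries and the melanoma group sat mostly between. The melanoma plus ICI libraries held 8.91, 0.285, 10.5, 0.158 and 0.400 CPM. That group split into replicates 1 and 3, which were the highest of all 20, and 3 libraries at the level of the ICI group. In counts these values came from 2 to 270 reads a library, with a median of 12, and 1027 in all. Counting error is therefore large in the low libraries, and largest where 3 counts or fewer were found. Those are 3 libraries, control replicates 2 and 3 and ICI replicate 1.

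Tbr1 (ENSMUSG00000035033, chr2:61802930-61814114, plus strand), a T-box transcription factor that specifies layer 6 corticothalamic neurons, was present at 38.9 to 127.8 CPM. The control libraries held 78.9, 41.6, 44.4, 104.7 and 86.0 CPM. The ICI libraries held 57.4, 49.6, 49.2, 53.9 and 74.1 CPM. The control libraries low in Tbr1, replicates 2 and 3, were those low in Trbc2, and the highest ICI library, replicate 5, was also the highest ICI library in Trbc2. The melanoma libraries held 74.4, 66.0, 55.1, 43.5 and 75.3 CPM of Tbr1. The melanoma plus ICI libraries held 112.01, 38.9, 127.8, 43.7 and 59.9 CPM. Replicates 1 and 3 of that group were the highest libraries of the study in Tbr1 as in Trbc2, and all groups overlapped.

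Lamp5 (ENSMUSG00000027270, chr2:136052239-136069917, plus strand), a lysosome-associated membrane protein family member found in upper layer neurons and in neurogliaform interneurons, varied more than Tbr1. The control libraries held 60.6, 32.03, 31.7, 125.7 and 109.7 CPM. The ICI libraries held 36.8, 40.8, 42.2, 34.7 and 48.9 CPM. Control replicates 4 and 5 stood well above the other 3 control libraries and above every ICI library. The melanoma libraries held 45.0, 47.8, 55.9, 34.5 and 48.2 CPM of Lamp5. The melanoma plus ICI libraries held 143.2, 36.9, 170.7, 30.4 and 47.7 CPM. Lamp5 thus had 4 libraries over 100 CPM, which are also the 4 libraries highest in Trbc2, and the groups overlapped.

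The other 4 layer genes moved over narrower or different ranges. Rprm (ENSMUSG00000075334, chr2:54084093-54085552, minus strand), a p53-induced cell cycle inhibitor used as a deep layer marker, ran from 17.5 to 59.0 CPM, with medians of 32.7 (control), 26.5 (ICI), 39.8 (melanoma) and 45.6 (melanoma plus ICI). Fezf2 (ENSMUSG00000021743, chr14:12341892-12345865, minus strand), the transcription factor that specifies layer 5 subcerebral projection neurons, ran from 22.3 to 52.9 CPM, with medians of 38.0, 46.0, 43.4 and 42.8 in the same order. These medians follow no common order over the groups. Rorb (ENSMUSG00000036192, chr19:18930605-19111196, minus strand), a nuclear receptor of layer 4 neurons, ran from 12.6 to 27.8 CPM. Cux2 (ENSMUSG00000042589, chr5:121856366-122050102, minus strand), a homeobox factor of layers 2 to 4, ran from 28.2 to 111.5 CPM. For Cux2 the highest libraries were melanoma plus ICI replicate 3 at 111.5, control replicate 1 at 105.3 and ICI replicate 5 at 98.9 CPM, of which the first alone was among the 5 highest in Trbc2.

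Per length, in RPKM (CPM per kilobase of exons), the mean level over the 20 libraries was highest for Rprm at 23.7, then Lamp5 at 20.9, Fezf2 at 18.1, Tbr1 at 12.2, Cux2 at 5.74, Trbc2 at 3.09 and Rorb at 1.66. Neighbours in this order overlapped in their ranges over the libraries, but ranges do not compare genes within the same library. Within libraries, Tbr1 was above Cux2 in every one, and each other pair of neighbours changed places in some. Trbc2 spread the most, with an SD of 2.00 on the log2 CPM scale, against 0.76 for Lamp5, 0.56 for Cux2, 0.53 for Rprm, 0.50 for Tbr1, 0.36 for Fezf2 and 0.31 for Rorb. The highest library was 19.6 times the median library for Trbc2 and 3.68 times for Lamp5. In bulk tissue, fewer cells of a type and less RNA per cell cannot be told apart.

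**Figure D1:**
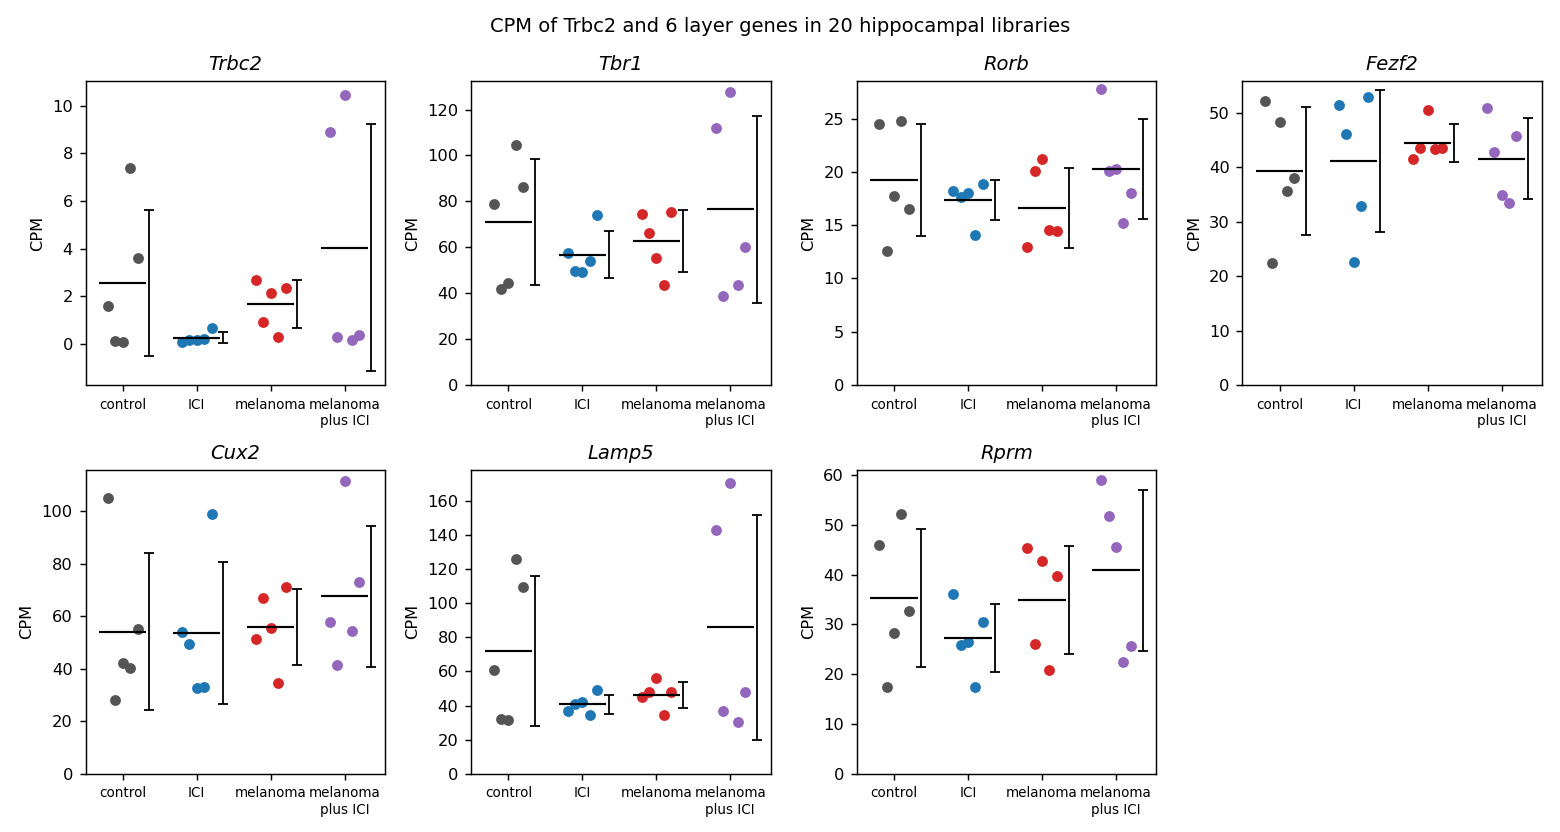
CPM of Trbc2 and the 6 layer genes (y axes, CPM) in each of the 20 libraries (points, by group on the x axes); lines are group means and bars 1 SD of 5 libraries. Trbc2, Tbr1 and Lamp5 each have their highest values in melanoma plus ICI replicates 1 and 3, at 8.91 and 10.5 CPM for Trbc2, while Fezf2 stays between 22.3 and 52.9 CPM.

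Trbc2 followed Lamp5 and Tbr1 most closely. Across the 20 libraries, the Pearson correlation of log2 CPM with Trbc2 was 0.91 for Lamp5 (Spearman 0.89) and 0.90 for Tbr1 (0.83), with jackknife standard errors of 0.049 for each. It was 0.72 (0.65) for Rprm, 0.48 (0.43) for Rorb and 0.48 (0.52) for Cux2, with standard errors of 0.123, 0.206 and 0.184. For Fezf2 it was 0.19 (0.05), with a standard error of 0.230. So a deep layer gene and an upper layer gene were the closest to Trbc2, and the layer 5 gene Fezf2 was the farthest. Correlations across libraries share depth, RNA composition and tissue content, and they are given as a description, with n = 20 and no p.

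Against the 18426 other genes tested, whose correlation with Trbc2 had a median of 0.01 and ranged from -0.91 to 0.96, Lamp5 ranked 15 and Tbr1 16. Rprm ranked 432, Rorb 2550, Cux2 2565 and Fezf2 6740. Correlations over 0.5 were common, at 2314 genes (12.6%), so values like those of Rorb and Cux2 are reached by many genes. On the linear scale, a library with no Trbc2 would have 33.9 CPM of Lamp5 by the fitted line, with 12.7 CPM more for each CPM of Trbc2. For Tbr1 the line started at 50.9 CPM and rose by 7.46 CPM for each CPM of Trbc2. Both genes thus kept a level well above 0 in libraries with hardly any Trbc2.

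**Figure D2:**
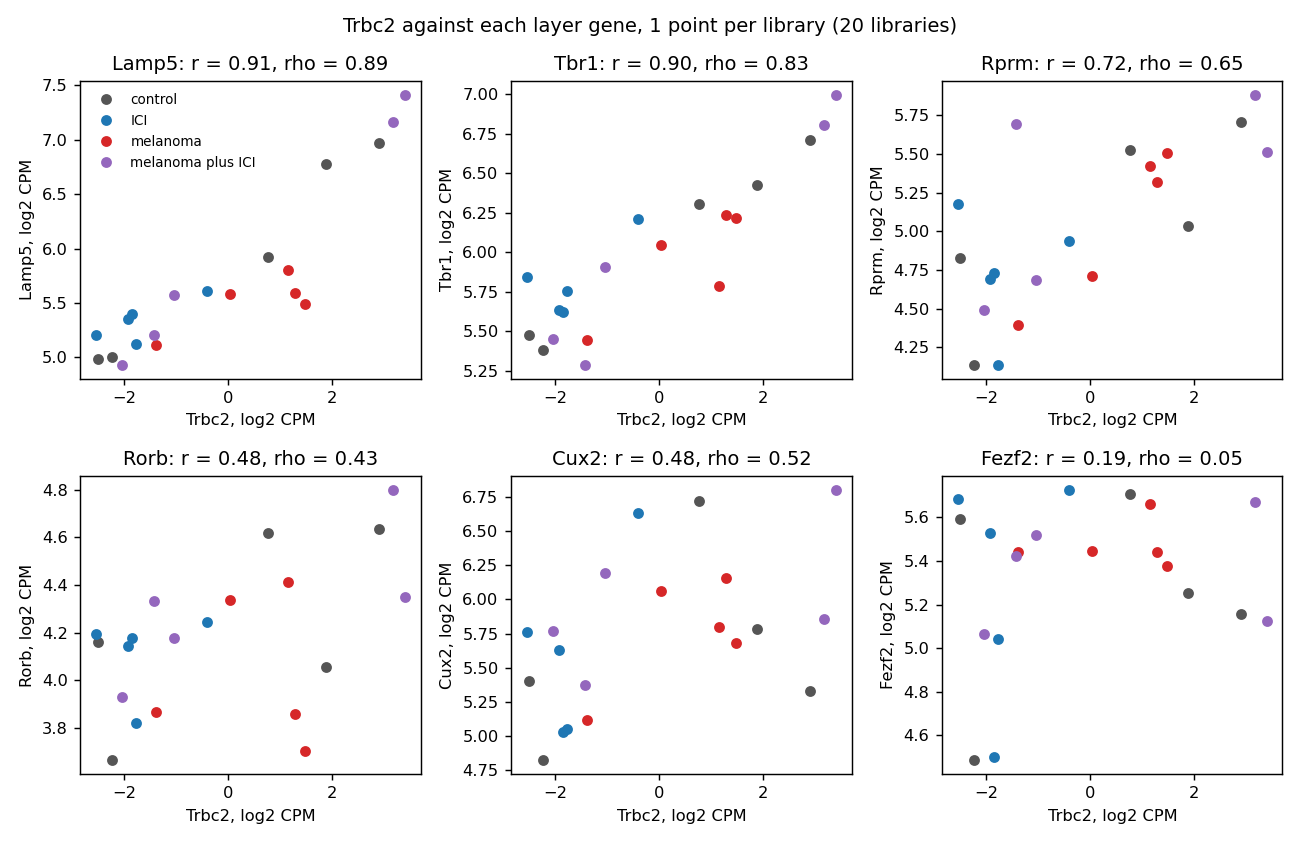
Log2 CPM of Trbc2 (x axes) against log2 CPM of each layer gene (y axes), 1 point per library coloured by group, with Pearson r and Spearman rho over 20 libraries. The points of Lamp5 (r 0.91) and Tbr1 (r 0.90) lie near a rising line, and those of Fezf2 (r 0.19) do not.

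The closest 2, the third and the lowest gene were little changed by how the order was computed. Lamp5 and Tbr1 changed places with each other in several settings, as did Rorb and Cux2. Leaving out each library in turn gave 0.89 to 0.94 for Lamp5, 0.88 to 0.93 for Tbr1, 0.67 to 0.81 for Rprm and 0.06 to 0.27 for Fezf2. Without the 2 libraries farthest from the median of Trbc2, melanoma plus ICI replicates 1 and 3, the values were 0.86 for Lamp5, 0.85 for Tbr1, 0.65 for Rprm, 0.37 for Cux2, 0.32 for Rorb and 0.20 for Fezf2. Taken as deviations from the group means, they were 0.96, 0.95, 0.69, 0.48, 0.53 and 0.16 in the same order, so the likeness was as large within the groups. Lamp5 and Tbr1 were the 2 closest in 31 of 31 settings, and Fezf2 was the lowest in 31. Rprm was the third in 30, the exception being without control replicate 4 and melanoma plus ICI replicate 1, the 2 libraries rich in short transcripts, where Rprm had 0.62, Cux2 0.64 and Rorb 0.23.

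**Figure D3:**
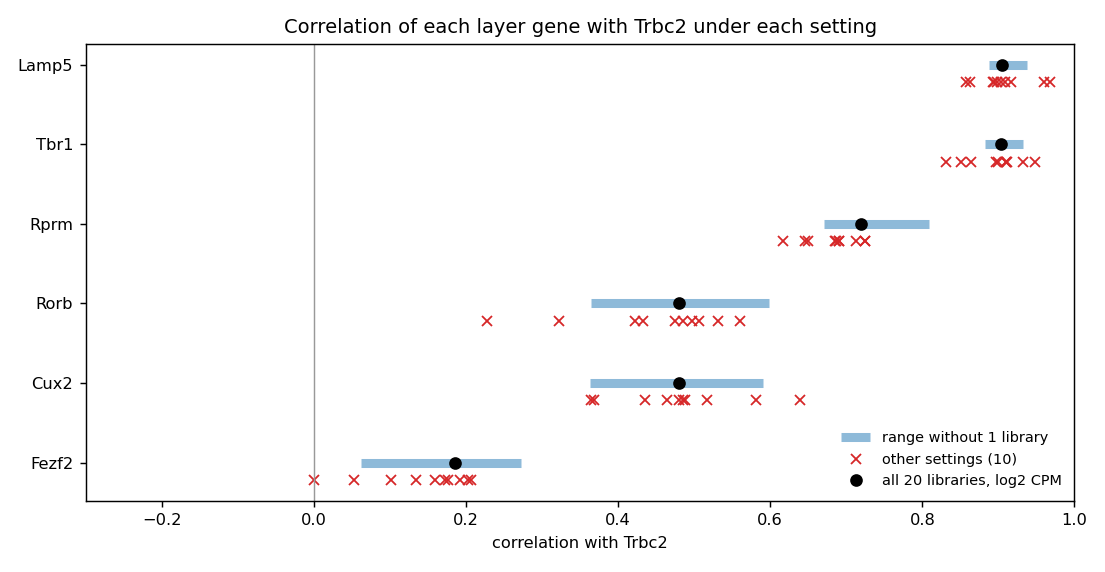
Correlation with Trbc2 (x axis) of each layer gene (y axis): the black point uses all 20 libraries on the log2 CPM scale, the bar spans the values without 1 library, and the crosses are 10 other settings. Lamp5 and Tbr1 stay above 0.8 in every setting shown and Fezf2 below 0.3.

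The layer genes did not all move with each other. Tbr1 and Lamp5 were as alike as either was to Trbc2, at 0.91. Tbr1 had 0.63 with Rprm, 0.60 with Cux2, 0.51 with Rorb and 0.21 with Fezf2. Fezf2 was closest to Cux2 at 0.56 and had 0.10 with Lamp5. Of the 5 libraries highest in Trbc2 (control replicates 4 and 5, melanoma replicate 1, melanoma plus ICI replicates 1 and 3), 4 were among the 5 highest in Tbr1 and 4 in Lamp5. The number was 3 for Rorb and Rprm, and 1 for Cux2 and Fezf2.

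Other genes of the neocortical layers, in lists that left out the 6 above, were mixed in how they varied with Trbc2. Of 30 tested, 9 (30%) had a correlation over 0.5, beside 12.6% of all genes, 1 had one under -0.5, beside 12.5% of all genes, and the median was 0.08. For layer 2/3 the median correlation of 5 tested genes of 6 listed was 0.07, from Stard8 at 0.61 to Calb1, a calcium-binding protein also of dentate granule cells, at -0.09. For 5 layer 4 genes it was -0.10, from Rspo1, a Wnt agonist, at 0.82 to Cdh24 at -0.45. For 8 layer 5 genes it was 0.07, from Deptor, an mTOR inhibitor, at 0.80 to Npr3 at -0.55. These medians are near the 0.01 of all genes, although each list held a gene with 0.61 or more. For 8 layer 6 corticothalamic genes the median was 0.24, from Foxp2, a forkhead transcription factor, at 0.75 to Crym at -0.38. For 4 layer 6b genes of 5 listed it was 0.17, from Cplx3 at 0.60 to Moxd1 at -0.18. The 6 layer genes with Trbc2, chosen with this pattern known, had a median of 0.60. Scored as the mean log2 CPM of its tested genes, each list had a correlation with Trbc2 of 0.28 (layer 2/3), 0.48 (layer 4), 0.48 (layer 5), 0.47 (layer 6 corticothalamic) and 0.39 (layer 6b), all above the median of their genes. The name neocortical describes what these genes are known for, and the lists' genes differed among themselves in how far they varied with Trbc2.

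Most listed genes of hippocampal fields had negative correlations with Trbc2: a positive value was found for 0 of 7 genes of CA2 and CA3, 2 of 5 of CA1, 0 of 6 of the dentate gyrus and 2 of 5 of the subiculum. The median correlation with Trbc2 was -0.54 over 7 genes of CA2 and CA3, from Bok at -0.12 to Amigo2 at -0.75, and -0.50 over 5 genes of CA1, from Pou3f1 at 0.11 to Man1a at -0.72. It was -0.47 over 6 dentate gyrus genes, from Stxbp6 at -0.30 to Prox1 at -0.55, and -0.13 over 5 subiculum genes, from Slc17a6 at 0.32 to Reln at -0.34. The relation was not uniform over libraries: melanoma plus ICI replicate 3, the highest in Trbc2, had the lowest mean log2 CPM of the dentate gyrus genes (2.72), while control replicate 5, also high in Trbc2, had 5.72. Among genes of neighbouring tissue and blood, the medians were 0.48 for 8 striatum genes (Drd2 0.32 to Drd1 0.53), 0.49 for 6 oligodendrocyte genes (Mobp 0.42 to Mog 0.54) and 0.50 for 5 red blood cell genes (Hba-a1 0.45 to Alas2 0.58). They were 0.07 for 6 thalamus genes (Prkcd -0.37 to Ramp3 0.92), -0.28 for 7 choroid plexus genes, 0.01 for 6 meninges genes, 0.28 for 6 pan-neuronal genes (Slc17a7 -0.48 to Tubb3 0.57) and 0.33 for 3 plasma and B cell genes of 7 listed (Jchain -0.11 to Ighm 0.68). These lists moved with Trbc2 to differing degrees, and their part in its variation was not tested.

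**Figure D4:**
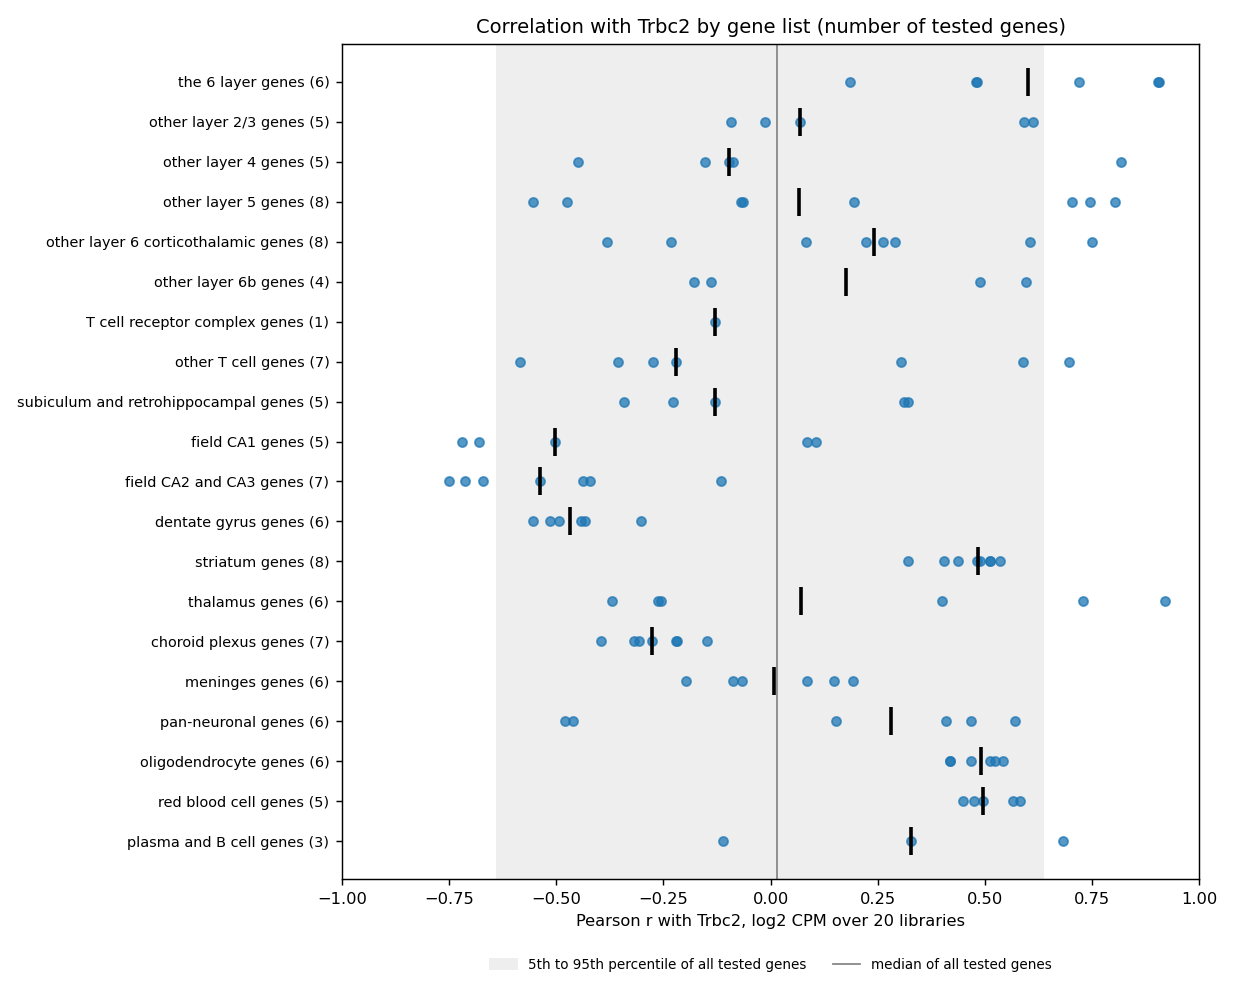
Correlation with Trbc2 over 20 libraries (x axis) of each tested gene (points) in each list (y axis), with the list's median as a bar. The 6 layer genes have a median of 0.60, the other layer lists lie between -0.10 and 0.24, and the hippocampal field lists CA1, CA2 and CA3, and dentate gyrus lie near -0.5.

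Genes of T cells were also mixed in how they varied with Trbc2. Of 11 T cell receptor complex genes listed, 8 were matched in the tables, and of these Trac, the alpha constant gene, alone had enough counts to be tested, and its correlation with Trbc2 was -0.13. Trac had 225 counts over all libraries, 3 to 21 in each, with sums of 55 (control), 45 (ICI), 54 (melanoma) and 71 (melanoma plus ICI). Trbc2 had 294, 30, 196 and 507 in the same groups. The sums of Trac thus varied far less between groups than those of Trbc2. Cd3d, Cd3e and Cd3g, the CD3 chains without which the receptor does not reach the surface, had 48 counts together, 0 to 7 in a library, with 9, 13, 9 and 17 by group. Of 17 other T cell genes 7 were tested, with a median correlation of -0.22, from Cd6 at 0.70 to Zap70 at -0.59, and 2 of the 7 were over 0.5.

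At the beta locus itself, most of the counts were assigned to the second cluster. The 7 Trbj2 segments had 128 counts in 17 of the 20 libraries, of which control had 33, ICI 10, melanoma 25 and melanoma plus ICI 60, and their counts had a correlation of 0.88 (Spearman 0.81) with those of Trbc2. The 3 segments printed above carried 43, 24 and 23 of them, for Trbj2-3, Trbj2-7 and Trbj2-2. The 7 Trbj1 segments had 5 counts, the 2 Trbd segments 1, the 35 Trbv segments 22 and Trbc1 7, over all libraries. The source of the Trbc2 and Trbj2 reads was not tested. The J segments of both clusters are 46 to 54 bases long. Ephb6, the next gene named here, lies 57130 bases after Trbc2, had 82.5 to 188 CPM, and had a correlation of 0.71 (0.68) with Trbc2.

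**Figure D5:**
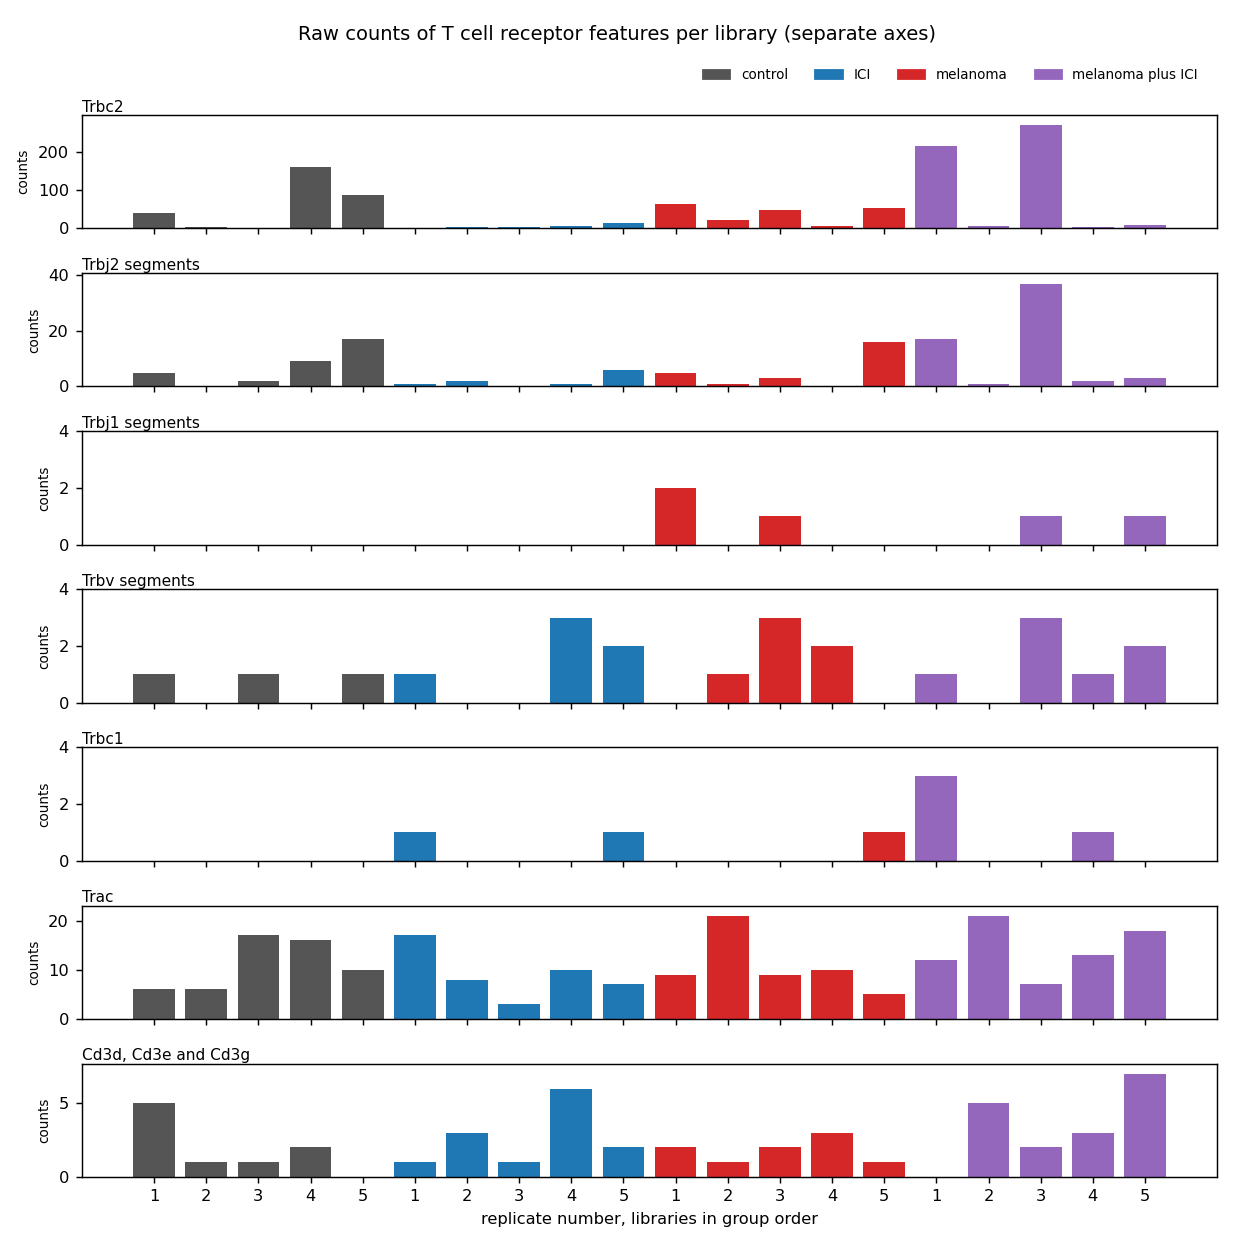
Counts at the T cell receptor loci by library, with Trbc2 beside the Trbj2 segments, Trac and the CD3 genes. Trbj2 counts, like those of Trbc2, are highest in melanoma plus ICI replicate 3, while Trac stays at 3 to 21 counts in every library.

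The 10 tested genes most like Trbc2, among those with a mean of at least 1 CPM, were Stard10 (0.96), a lipid transfer protein, Arpp19 (0.95), an inhibitor of protein phosphatase 2A, Igfbp6 (0.95), an IGF-binding protein, Ccl27a (0.94), a chemokine, Gm11549 (0.92), Csnk1e (0.92), a casein kinase, Ramp3 (0.92), a receptor activity-modifying protein, Cdkn1a (0.92), a cell cycle inhibitor, Cited4 (0.92), a transcriptional co-activator, and Efhd2 (0.91), a calcium-binding protein. Lamp5 at 0.91 and Tbr1 at 0.90 came just after them. Ramp3 is also in the thalamus list.

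Transcript length was a further measure that moved with these genes. In each library a slope of log2 CPM deviation on log2 gene length was computed, which ran from -0.11 to 0.04. It had a correlation of -0.57 with Trbc2, -0.62 with Lamp5, -0.63 with Rorb, -0.51 with Tbr1, -0.46 with Rprm, 0.08 with Cux2 and -0.01 with Fezf2. Control replicate 4 had the lowest slope, and replicate 1 of melanoma plus ICI the next. With the length trend removed from every library, the 10 most alike genes kept 0.86 to 0.95 with Trbc2. The layer genes then had 0.90 (Tbr1), 0.90 (Lamp5), 0.69 (Rprm), 0.58 (Cux2), 0.51 (Rorb) and 0.13 (Fezf2).

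Between the groups, edgeR's quasi-likelihood test called none of the 7 genes at an adjusted p under 0.05 in the 6 contrasts, and none of the 18427 genes tested (0% in each contrast). At an unadjusted p under 0.05, 964 genes (5.23%) passed for ICI against control, and Trbc2 was the only one of the 7. Its fold change was -3.25 on the log2 scale (SE 1.23, adjusted p = 0.766), with a mean of 0.265 ± 0.229 CPM (SD, n = 5) in ICI and 2.56 ± 3.05 in control, and the groups overlapped. Lamp5 had -0.82 (SE 0.44), Rprm -0.37, Tbr1 -0.32 and Fezf2 0.07 in this contrast. The median over the 7 was -0.32, beside -0.01 over all genes.

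For melanoma against control, 941 genes (5.11%) passed the unadjusted threshold and none of the 7 did, the smallest p being that of Lamp5 at -0.64 (adjusted p = 0.877). Trbc2 had -0.61 (SE 1.02, adjusted p = 0.912 by edgeR), and this turned to 0.28 without control replicate 4. With the score of 30 other layer genes as a covariate it was -1.25. For melanoma plus ICI against control, 438 genes (2.38%) passed and none of the 7 did. Cux2 had the smallest p of the 7, with a log2 fold change of 0.32 (adjusted p = 0.9997 by edgeR). Trbc2 had 0.66 (SE 0.99), which turned to -0.072 without melanoma plus ICI replicate 3. The 7 fold changes were positive in this fit, with a median of 0.21, beside 50.7% of all genes and a median of 0.003, and that of Trbc2 was -0.62 with the score of 30 other layer genes as a covariate.

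For melanoma plus ICI against melanoma, 1013 genes (5.5%) passed and none of the 7 did. Lamp5 had 0.89 (SE 0.44, adjusted p = 0.825 by edgeR) and Trbc2 1.27 (SE 1.01), which was 0.54 without melanoma plus ICI replicate 3. For melanoma plus ICI against ICI, 1590 genes (8.63%) passed, among them Trbc2 at 3.91 (SE 1.23, adjusted p = 0.563 by edgeR) and Lamp5 at 1.08 (SE 0.44, adjusted p = 0.563), which was 0.67 without melanoma plus ICI replicate 3. In the combined group 2 of 5 libraries, replicates 1 and 3, held nearly all of the Trbc2 counts, and the other 3 lay within the ICI range of 0.0858 to 0.667 CPM. For the interaction of inhibitors and tumour, 1892 genes (10.3%) passed, among them Trbc2 at 4.52 (SE 1.60, adjusted p = 0.476) and Lamp5 at 1.71 (SE 0.62, adjusted p = 0.477), while Fezf2 had -0.17. The contrasts share groups, so these are not separate results. Under limma voom with quality weights Trbc2 had the opposite sign in 3 of the 6 contrasts: melanoma against control, melanoma plus ICI against melanoma, and the interaction. In the other 3 voom gave Trbc2 smaller values, -1.13 for ICI against control, 0.04 for melanoma plus ICI against control and 1.17 for melanoma plus ICI against ICI. Under voom Lamp5 had 0.32 for the interaction and 0.24 between melanoma plus ICI and ICI. No gene of the 7 had non-overlapping groups in any of the 5 pairwise contrasts, where 0.885%, 1.04%, 0.304%, 1.54% and 1.45% of all genes did, in the order above. None of the listed layer, T cell or tissue genes passed the adjusted threshold in any contrast, but several tissue lists had median fold changes beyond 1 in size, in contrasts where the fold change of Trbc2 was large and in contrasts where it was small. For melanoma plus ICI against ICI the medians were -1.15 for dentate gyrus genes (0 of 6 higher), 1.01 for striatum (8 of 8), 1.34 for choroid plexus (7 of 7), 0.83 for meninges (6 of 6) and 0.92 for red blood cells (5 of 5). For ICI against control they were -1.27 for choroid plexus (0 of 7) and -1.09 for red blood cells (0 of 5). For the interaction they were 2.76 for choroid plexus (7 of 7), 1.202 for meninges (6 of 6), 0.98 for red blood cells (5 of 5) and -1.23 for striatum (0 of 8). For melanoma against control, where Trbc2 had -0.61, they were 2.32 for striatum (8 of 8) and -1.43 for choroid plexus (0 of 7). For melanoma plus ICI against control they were -1.06 for dentate gyrus (0 of 6) and 1.05 for striatum (8 of 8), and for melanoma plus ICI against melanoma -1.21 for striatum (0 of 8) and 1.38 for choroid plexus (7 of 7). Their part in the values of Trbc2 and Lamp5 was not tested.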

How the data were processed

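Reads were counted per gene by the authors, who deposited 1 table of raw counts per library; per the submitters' processing notes STAR 2.5.2b and DESeq2 1.16.1 were used, and the counting program, its strand setting, its handling of reads that match several genes and the genome build are not given in the sources used here. Each deposited table also gives a gene length, another unit, in bases. Ensembl identifiers were matched to GENCODE M21 (GRCm38) for 49412 of 49671 genes; the 259 without a symbol held 0.0415% of counts. Counts were tested with edgeR 4.0.16 in R 4.3.3 (TMM, filterByExpr with a minimum count of 10, 1 mean per group over all 20 libraries, quasi-likelihood F test, Benjamini-Hochberg over 18427 genes, threshold 0.05), after the test was tested on simulated data. Likeness used log2 CPM with a prior count of 2. Alternatives were DESeq2 1.42.0, limma 3.58.1 voom, other scalings, filters and sample sets. Replicates are separate mice, and none of the 40 pairs of libraries within groups agreed within sampling noise (chi-square per gene at least 11.0). Genes named are the 7, the 10 most like Trbc2, the highest and lowest of each list and the smallest p in each contrast; the other genes of the T cell receptor loci, the CD3 genes and Ephb6 were added outside that rule. The 7 genes and the lists were chosen with earlier results of these data known.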

Additional observations from a re-analysis of the deposited data

Results flagged for a closer look

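Among 28 groups of 5 libraries (7 genes in 4 groups), 2 had a library whose gap to the next, as a share of the group's range, passed Dixon's critical value of 0.71; chance alone gives about 1.4. Rorb in ICI replicate 4 was low, at 3.82 on the log2 CPM scale (14.0 CPM), with a gap of 0.764 of the range. Fezf2 in melanoma replicate 3 was high, at 5.66 (50.5 CPM), with a gap of 0.766. Neither gene is among those closest to Trbc2.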

How the results depend on the processing

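The correlation of Trbc2 with Tbr1 was 0.83 by Spearman's rho and 0.85 without the 2 libraries farthest from the median of Trbc2, against 0.90. That with Lamp5 was 0.97 on linear CPM and 0.96 from deviations from the group means, against 0.91, and that with Rorb was 0.23 without control replicate 4 and melanoma plus ICI replicate 1, an alternative chosen after seeing the data, against 0.48. Leaving out 1 library gave 0.88 to 0.93 for Tbr1, 0.89 to 0.94 for Lamp5, 0.67 to 0.81 for Rprm, 0.36 to 0.60 for Rorb, 0.36 to 0.59 for Cux2 and 0.06 to 0.27 for Fezf2. None of the 7 genes passed the adjusted threshold in any contrast under any alternative in which it was fitted (0 in each). In the fits on only the groups compared, Trbc2 did not pass the filter on low counts for ICI against control or for melanoma plus ICI against ICI, so those cover 6 genes. The log2 fold change of Trbc2 reversed for melanoma against control under limma voom with quality weights (1.61) and without control replicate 4 (0.28), also when melanoma plus ICI replicate 1 was left out with it (0.28). It reversed for melanoma plus ICI against control with the score of 30 other layer genes as a covariate (-0.62) and without melanoma plus ICI replicate 3 (-0.072), and under voom for melanoma plus ICI against melanoma (-1.57) and for the interaction (-0.45). The cause was not tested. Over the fits that leave out 1 library, the Trbc2 fold change had a lowest and highest value of -3.92 and -2.36 (ICI against control), -0.93 and 0.28 (melanoma against control), -0.072 and 1.55 (melanoma plus ICI against control), 0.54 and 1.59 (melanoma plus ICI against melanoma), 3.63 and 5.20 (the interaction) and 3.18 and 4.58 (melanoma plus ICI against ICI). For Lamp5 they were 0.67 and 1.30 (melanoma plus ICI against ICI) and 1.31 and 1.94 (the interaction). Counts of all genes past the threshold were 0 with edgeR in each contrast. The contrasts are taken here as ICI, melanoma and melanoma plus ICI against control, then melanoma plus ICI against melanoma, against ICI, and the interaction. In that order the counts were 1, 8, 0, 0, 9 and 47 with DESeq2 and 0, 1, 0, 25, 0 and 19 with voom. They were 3 for melanoma against control fitted on those groups only, and without melanoma plus ICI replicate 3 they were 3 for melanoma against control, 12 for melanoma plus ICI against melanoma and 11 for the interaction. Same-numbered mice were not clearly more alike than others. The mean correlation of deviations was 0.03 over 30 same-numbered pairs, with 10 over 0.1. Over 120 other-numbered pairs it was -0.007, with 39 over 0.1. Such means cannot settle whether equal numbers shared a batch. With the replicate number as a block, 0 of the 7 genes passed, and the Trbc2 fold change for melanoma plus ICI against ICI was 3.54. Of the 7 genes, depth limits Trbc2 most. Its median was 12 counts a library, and 3 libraries had 3 or fewer.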
